A study of Mus musculus with 8 samples.

Results

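Hif1a, Pgk1 and Gapdh are 3 of the 71 genes of a NanoString nCounter panel that was run on mouse colon after a high salt diet (HSD). Hif1a codes for a regulator of the response to low oxygen, and Pgk1 and Gapdh code for 2 enzymes of glycolysis. They were chosen by name, with the diet differences of Hif1a and of the reference genes already known. The values of these genes that compare the diets are therefore given as a description without a test. Pgk1 and Gapdh are also, with Gusb, the 3 reference genes to which the deposited values were scaled, and Gusb is used here as the gene for comparison. All 3 genes lay above the floor (the level to which low values had been raised) in all 8 pools, so none was left out.

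RNA came from colonic tissue of specific pathogen-free C57BL/6 mice, male and female, 7 to 10 weeks old, after 1 week on a control diet or on an HSD, the same chow supplemented with 4% NaCl. Each diet had 10 mice, which were combined by sex into 4 pools of RNA, with mice 1, 2 and 3 of a sex in the first and its mice 4 and 5 in the second. Pools are named below by their number of mice, sex and diet, such as the 3-mouse male control pool for male mice 1, 2 and 3. Because a pool averages its mice, pools can differ less than single mice do. The study asked whether salt for this time alters the expression of genes linked to inflammation. The labels name no engineered allele, and RNA was taken from tissue without sorting, in which a change of cells and a change of RNA per cell cannot be told apart. The epithelial markers Cdh1, Tff3 and Muc2 were above the floor in every pool, as were the neuron markers CALRET and VIP. PGP9.5, a further marker of neurons, was at the floor in some pools. The nCounter counts fluorescent barcodes on single RNA molecules without amplification. A fixed step per pool, the value of 1 count, gave back the counts behind the deposited values, and recovered totals ran from 13574 to 74270 in control pools and from 26893 to 169300 in HSD pools.

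HIF-1 is a dimer of HIF-1α, the product of Hif1a, with a constitutive partner. In oxygen, HIF-1α is hydroxylated on proline and degraded, so its activity is set largely at the protein, which these RNA measurements do not show. When oxygen is low, the protein persists, enters the nucleus and binds short DNA elements near its target genes, among which those of glycolysis are the best known. The colon epithelium borders an almost oxygen-free lumen, and HIF-1 is known there for its part in barrier function and in the response to inflammation. Phosphoglycerate kinase 1 (Pgk1) makes ATP in glycolysis, on the product of glyceraldehyde-3-phosphate dehydrogenase (Gapdh). Gusb codes for a lysosomal β-glucuronidase and has no part in glycolysis.

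The element bound by HIF-1 has the core ACGTG or GCGTG, and the sequences before the start sites of Pgk1 and Gapdh are shown because both hold these letters. They are the 250 bases before the RefSeq start (GRCm38.p6), read 5′ to 3′ on the strand of the gene, with each core on either strand in capitals (CACGT and CACGC are the cores read from the opposite strand). The Pgk1 sequence is chrX:106186850-106187099 on the plus strand, and the Gapdh sequence is chr6:125165774-125166023 on the minus strand.
Pgk1: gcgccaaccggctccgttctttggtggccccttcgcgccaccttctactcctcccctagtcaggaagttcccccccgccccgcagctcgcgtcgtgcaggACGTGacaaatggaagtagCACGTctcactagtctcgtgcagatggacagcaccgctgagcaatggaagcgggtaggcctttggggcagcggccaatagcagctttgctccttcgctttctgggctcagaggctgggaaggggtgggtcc
Gapdh: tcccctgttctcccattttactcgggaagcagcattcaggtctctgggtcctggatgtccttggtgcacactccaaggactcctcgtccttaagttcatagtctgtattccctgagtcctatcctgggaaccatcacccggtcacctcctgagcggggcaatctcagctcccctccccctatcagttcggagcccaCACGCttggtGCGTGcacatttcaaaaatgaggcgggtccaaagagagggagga
Pgk1 held 2 places with a core, which began 150 and 131 bases before the start. Gapdh also held 2, which began 54 and 44 bases before it. Hif1a itself held 2 places, 1 of them the palindrome CACGTG that counts on both strands, and Gusb held 1. Of 32851 RefSeq sequences of this length, 38.6% held at least 1 place and 13.5% at least 2, so the letters are common. A match is a description of the sequence and not evidence of a bound site, and the RefSeq span of Gapdh reaches further upstream than the start used here.

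Hif1a varied 6.03-fold among the 8 pools, and the pools of the 2 diets overlapped. On the control diet the deposited value, in normalized counts, was 269 in the 3-mouse and 926 in the 2-mouse male pool, and 1137 in the 3-mouse and 797 in the 2-mouse female pool. On the HSD it was 729 in the 3-mouse and 188.5 in the 2-mouse male pool, and 289 in the 3-mouse and 417 in the 2-mouse female pool. Thus 3 of the 4 control pools lay above every HSD pool. The 3-mouse male pools stood apart from this order on both diets: their control pool was the lowest of its diet and their HSD pool the highest. Hif1a was well measured in every pool, with 93 to 1780 recovered counts, at least 20.5 times the highest negative control probe.

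**Figure D1:**
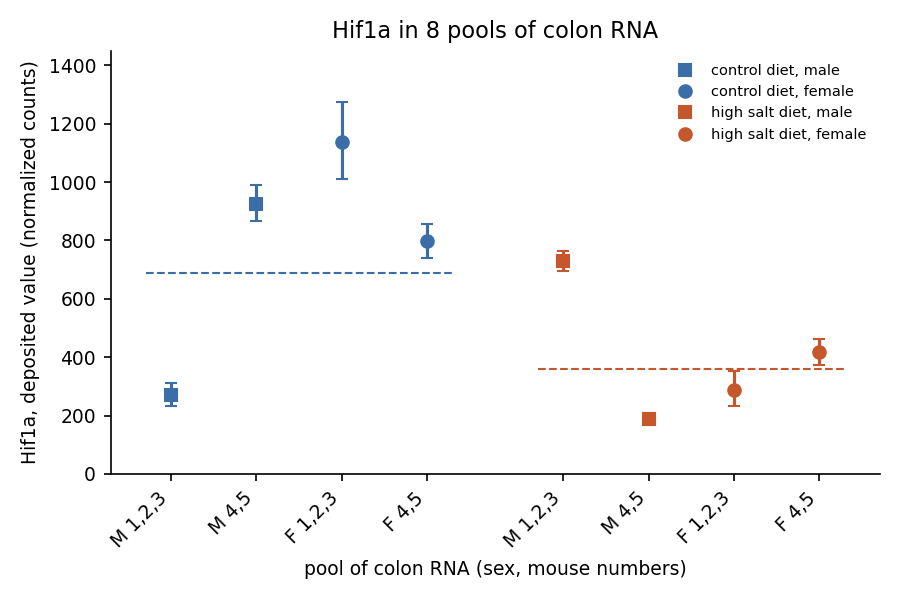
Deposited value of Hif1a (normalized counts) in each of the 8 pools, named by sex and mouse numbers, with 95% Poisson intervals of the recovered count as bars and the geometric mean of each diet as a dashed line. The 3-mouse male control pool (269) sits among the HSD pools, and the 3-mouse male HSD pool (729) sits just below the lowest of the other control pools (797).

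By diet, the control pools had a mean Hif1a of 782 ± 370 (SD, n = 4 pools) and the HSD pools one of 406 ± 235 (SD, n = 4 pools). The difference of the mean log2 value plus 1 was -0.94 (standard error 0.62), which puts the geometric mean of the HSD pools at 52.1% of that of the control pools. The difference was smaller than 2 standard errors. It was the 3rd lowest of the 68 target genes, after Il22ra2 and Cldn2, and 11 of the 68 genes (16.2%) had a difference at least as far from 0 as that of Hif1a. Limma with Benjamini-Hochberg adjustment called 0 of the 68 genes between diets (0%), with 3 at an unadjusted p under 0.05, and voom in limma called 0 of 47, with 1 at an unadjusted p under 0.05. The diets did not overlap in 1 of the 68 genes (1.47%), which was not Hif1a.

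The lower mean of Hif1a on the HSD did not depend on which reference gene set the scale. The ratio of Hif1a to Gusb had means of 7.71 ± 3.74 (SD, n = 4 pools) in control pools and 3.90 ± 2.16 (SD, n = 4 pools) in HSD pools, a log2 difference of -0.99 (standard error 0.64). With Gapdh as the scale the log2 difference was -1.02 (standard error 0.63), and with Pgk1 it was -0.81 (standard error 0.62). It did depend on single pools in size. Without the 3-mouse male control pool the difference was -1.39, and without the 2-mouse male HSD pool it was -0.63.

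The order of the pools by Hif1a was clear of the counting error of Hif1a itself at most steps. From the lowest, the 2-mouse male HSD pool (95% Poisson interval 169 to 209) lay below all others. The next 2, the 3-mouse male control pool (232 to 310) and the 3-mouse female HSD pool (233 to 354), could not be ordered. The 3-mouse male HSD pool (695 to 763) and the 2-mouse female control pool (740.4 to 856) overlapped as well. Above them came the 2-mouse male control pool (867 to 989) and, highest, the 3-mouse female control pool (1011 to 1275). The intervals cover the counting error of Hif1a only, and not that of the reference genes that set the scale. Gusb had 25 counts in the 3-mouse female control pool. The gaps from 856 to 867 and from 989 to 1011 are narrow beside this, so the order of the highest pools is not settled.

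Hif1a did not pass the test between sexes or between sets of mouse numbers, which were not used to choose it. Female pools had 659.9 ± 384 (mean ± SD, n = 4 pools) and male pools 528 ± 357 (mean ± SD, n = 4 pools). With diet as a term the log2 difference of female minus male was 0.42 (standard error 0.56, limma adjusted p = 0.720). Limma called 0 of the 68 genes between sexes (0%), with 9 at an unadjusted p under 0.05, and voom called 1 of 47, P75, with 8 at an unadjusted p under 0.05. The sign of the sex difference of Hif1a rested on the scaling and on 1 pool: it was -0.27 when each pool was centred on the median of its target genes and -0.042 without the 3-mouse male control pool. Pools of mice 4 and 5 differed from those of mice 1, 2 and 3 by -0.037 (standard error 0.58, limma adjusted p = 0.966), and limma called 0 of 68 genes in this comparison (0%), with 2 at an unadjusted p under 0.05 and 0 of 47 in voom, where 1 was under 0.05.

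By sex, the log2 difference of HSD minus control was -1.45 in the female pools and -0.43 in the male pools. Both female control pools, at 797 and 1137, lay above both female HSD pools, at 289 and 417. In the males the diets crossed, with 269 and 926 on the control diet against 188.5 and 729 on the HSD. The difference between the sexes in the diet effect was -1.03 (standard error 1.11, limma adjusted p = 0.880), less than its standard error, with 0 of 68 genes called (0%), 6 at an unadjusted p under 0.05, and 0 of 47 in voom, where 4 were under 0.05. It was -2.0 without the 2-mouse male HSD pool and -0.053 without the 3-mouse male HSD pool.

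Pgk1 and Gapdh moved far less than Hif1a. The deposited values of Pgk1 ran from 419 to 535, a 1.28-fold span, those of Gapdh from 8326 to 9945 (1.19-fold) and those of Gusb from 89.45 to 118 (1.32-fold). These spans are narrowed by the scaling, since the geometric mean of the 3 genes had been set to 773 in every pool, and only the ratios between them are free of it. The SD among pools on the log2 scale was 0.958 for Hif1a, against 0.0856 from the counting error of its own counts. For Pgk1 it was 0.119 against 0.0819, for Gapdh 0.0960 against 0.0187 and for Gusb 0.128 against 0.181. The counting values leave out the error of the reference genes, above all Gusb, that the scaling carries into each value. For Pgk1 and Gapdh the spread beyond counting can therefore not be read from them.

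**Figure D2:**
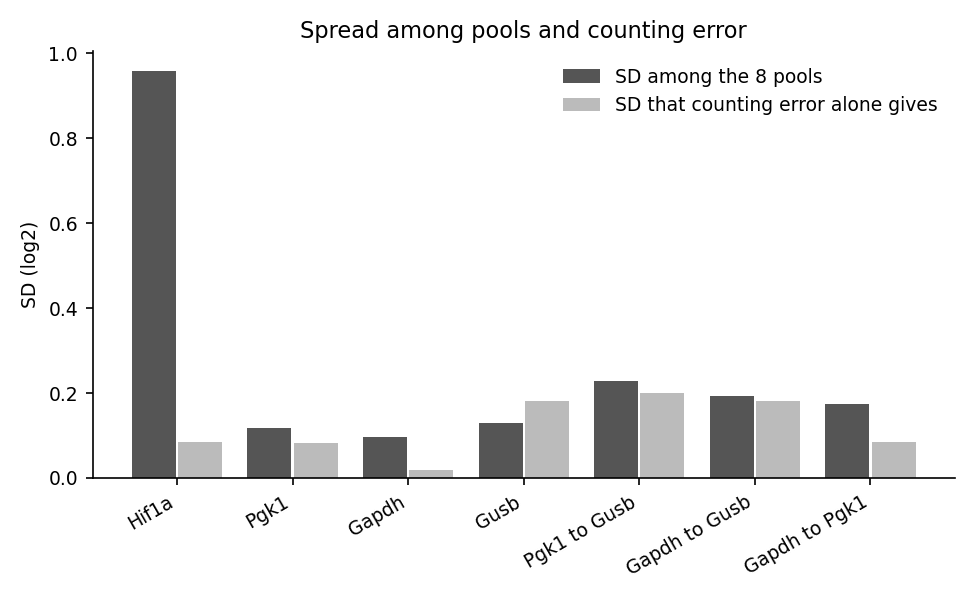
Standard deviation of log2 values among the 8 pools (dark bars) beside that from the counting error of the plotted gene or genes (light bars), for Hif1a, the 3 reference genes and their ratios. The light bars of single genes leave out the error that the scaling adds from the reference genes. Hif1a spreads by 0.958 against 0.0856 from counting, whereas the ratio of Pgk1 to Gusb spreads by 0.228 against 0.199 and that of Gapdh to Gusb by 0.193 against 0.182.

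The ratio of Pgk1 to Gusb was close among control pools and wider on the HSD. On the control diet it was 5.21 in the 3-mouse and 4.72 in the 2-mouse male pool, and 5.00 in the 3-mouse and 5.19 in the 2-mouse female pool. On the HSD it was 4.03 in the 3-mouse and 3.54 in the 2-mouse male pool, and 4.67 in the 3-mouse and 5.83 in the 2-mouse female pool. The diets overlapped: 3 HSD pools lay below every control pool and the remaining HSD pool lay above every control pool. The means were 5.03 ± 0.225 (SD, n = 4 pools) and 4.52 ± 0.991 (SD, n = 4 pools), with a log2 difference of -0.18 (standard error 0.16), which was -0.070 without the 2-mouse male HSD pool and -0.31 without the 2-mouse female HSD pool. The male HSD pools had the lowest ratios. The log2 difference between diets was -0.39 in males and 0.035 in females, and whether it differs by sex was not tested.

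Gusb limits these ratios, because it rested on 25 to 273 recovered counts, against 125 to 1100 for Pgk1 and 2580 to 22415 for Gapdh. In the 3-mouse female control pool, with 25 Gusb counts, the 95% interval of the ratio of Pgk1 to Gusb was 3.24 to 8.02 (exact binomial). In the 2-mouse male HSD pool, with 219, it was 3.04 to 4.13. Among pools the SD of this ratio was 0.228 on the log2 scale, against 0.199 from counting error alone, so its spread was little above that of counting.

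The ratio of Gapdh to Gusb had nearly equal means on both diets. It was 94.8, 76.8, 103 and 81.3 in the control pools, in the order 3-mouse male, 2-mouse male, 3-mouse female and 2-mouse female. In the same order the HSD pools had 82.1, 78.8, 92.1 and 111. The ranges lay almost on top of each other, with means of 89.0 ± 12.2 (SD, n = 4 pools) in control pools and 90.9 ± 14.3 (SD, n = 4 pools) in HSD pools. The log2 difference was 0.028 (standard error 0.15), and it ran from -0.071 to 0.10 when each pool was left out in turn.

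The ratio of Gapdh to Pgk1, which leaves Gusb out, was the most precise of the 3, with an SD of 0.174 among pools on the log2 scale against 0.0840 from counting error. It was 18.2, 16.3, 20.6 and 15.7 in the control pools, in the order used above, and 20.4, 22.3, 19.7 and 19.0 in the HSD pools. The means were 17.7 ± 2.24 (SD, n = 4 pools) and 20.3 ± 1.41 (SD, n = 4 pools), a log2 difference of 0.21 (standard error 0.10), so that Pgk1 had the lower mean relative to Gapdh on the HSD. The diets overlapped, since the 3-mouse female control pool lay among the HSD pools. Gapdh RNA is close in sequence to many processed pseudogenes, and the probe sequences were not analysed here.

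**Figure D3:**
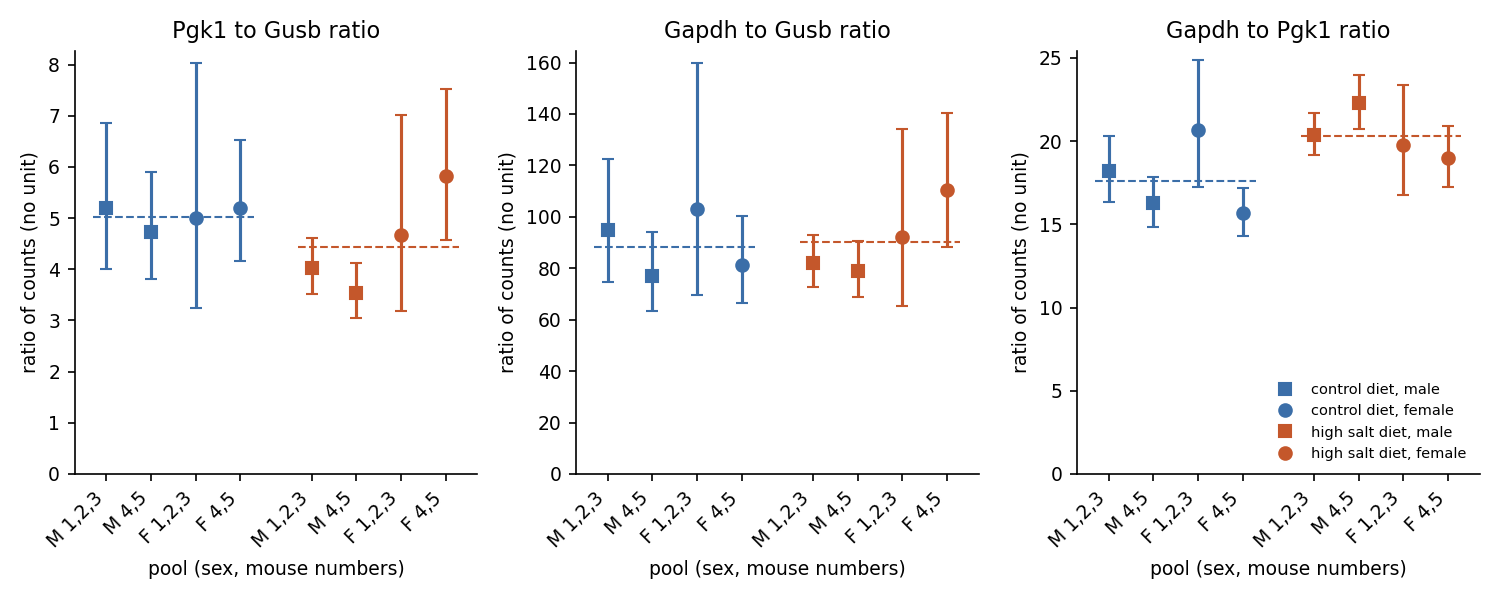
Ratios of Pgk1 to Gusb, Gapdh to Gusb and Gapdh to Pgk1 in each of the 8 pools, with exact binomial 95% intervals as bars and the geometric mean of each diet as a dashed line. Intervals are widest in the 3-mouse female pools, where Gusb had 25 and 33 counts, and the male HSD pools have the lowest ratios of Pgk1 to Gusb, 4.03 and 3.54.

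Between sexes, the ratios of the glycolytic genes to Gusb did not pass the test. The ratio of Pgk1 to Gusb was 5.17 ± 0.490 (SD, n = 4 pools) in females and 4.37 ± 0.737 (SD, n = 4 pools) in males, a log2 difference of 0.25 (standard error 0.14, two-sided exact permutation p = 0.20, adjusted over both ratios 0.20). The ratio of Gapdh to Gusb was 96.8 ± 12.8 (SD, n = 4 pools) in females and 83.2 ± 8.10 (SD, n = 4 pools) in males, a log2 difference of 0.21 (standard error 0.12, two-sided exact permutation p = 0.143, adjusted over both 0.20). Over 70 assignments of the pools the smallest p is 0.0286. Gusb enters both ratios, so the 2 tests are not independent.

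The glycolytic genes did not follow Hif1a from pool to pool to a degree that 8 pools could show. The 2-mouse male HSD pool had both the lowest Hif1a and the lowest ratio of Pgk1 to Gusb. Elsewhere the order broke: the 3-mouse male control pool, with the 2nd lowest Hif1a, had the 2nd highest ratio of Pgk1 to Gusb. The 2-mouse female HSD pool, with Hif1a at 417, had the highest ratio of both genes to Gusb. The 2-mouse male control pool, with the 2nd highest Hif1a, had the lowest ratio of Gapdh to Gusb. Both ratios spread little beyond counting error, with log2 SDs of 0.228 against 0.199 for Pgk1 and 0.193 against 0.182 for Gapdh. Ranks of pools with close ratios can therefore not be told apart, and the broken order alone does not show that the genes fail to follow Hif1a.

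Over the 8 pools, log2 Hif1a and the log2 ratio of Pgk1 to Gusb had r = 0.30 (exact permutation p = 0.467, adjusted over both relations 0.932) and rho = 0.190 (exact permutation p = 0.665, adjusted 1). For the ratio of Gapdh to Gusb r was -0.034 (exact permutation p = 0.932, adjusted 0.932) and rho was 0 (exact permutation p = 1, adjusted 1). Without the 2 pools farthest from the median of Hif1a, the 2-mouse male HSD pool and the 3-mouse female control pool, r was -0.33 for Pgk1 and -0.73 for Gapdh (n = 6, exact permutation p = 0.543 and 0.0917, adjusted 0.543 and 0.183). The positive sign of r for Pgk1 rested on the 2-mouse male HSD pool: r was -0.25 without that pool alone and 0.26 without the 3-mouse female control pool alone. Within diets r was -0.57 for Pgk1 on the control diet and 0.29 on the HSD, and -0.16 and 0.18 for Gapdh (n = 4 pools each, too few for a test).

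**Figure D4:**
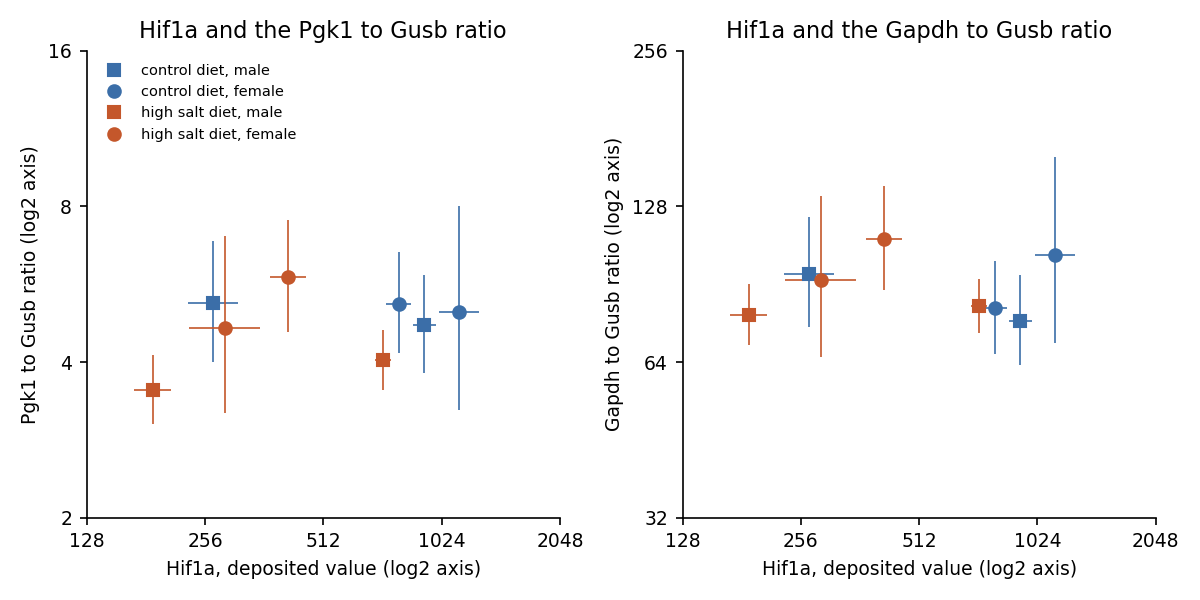
Ratio of Pgk1 to Gusb (left) and of Gapdh to Gusb (right) against the deposited value of Hif1a in the 8 pools, all on log2 axes, with 95% counting intervals as bars. Hif1a spans 188.5 to 1137, while the ratios stay between 3.54 and 5.83 and between 76.8 and 111, with no common trend.

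As a slope, the log2 ratio of Pgk1 to Gusb changed by 0.071 for each doubling of Hif1a (standard error 0.093, n = 8 pools), and that of Gapdh to Gusb by -0.0068 (standard error 0.082, n = 8 pools). The deposited Hif1a is scaled to all 3 reference genes, so these relations share genes on both axes. Against ratios that share no gene with them, r was 0.28 between Hif1a to Gapdh and Pgk1 to Gusb (exact permutation p = 0.499) and -0.077 between Hif1a to Pgk1 and Gapdh to Gusb (exact permutation p = 0.846).

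Of 4 other genes of the panel known to respond to hypoxia or HIF-1, limma called 0 between diets, with 0 at an unadjusted p under 0.05 and 0 called in voom. Their median log2 difference was -0.21, beside 0.18 for all 68 target genes, and 3 of the 4 had a negative difference, as did 24 of the 68. Cldn1, a tight junction claudin, was lowest at -0.49 (standard error 0.51, limma adjusted p = 0.912). Its mean was 26.2 ± 21.1 (SD, n = 4 pools) in control pools and 16.7 ± 9.58 (SD, n = 4 pools) in HSD pools, from 10 to 30 recovered counts. Its difference was -0.033 without the 3-mouse female control pool and -0.82 without the 3-mouse female HSD pool. MMP9, a matrix protease of neutrophils and macrophages, was highest at 0.32 (standard error 0.62, limma adjusted p = 0.912), from 6 to 21 recovered counts. Tff3, the trefoil peptide of goblet cells, and Cxcr4, a chemokine receptor, had -0.17 and -0.25, with limma adjusted p = 0.912 for both.

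Of 4 genes whose signalling raises Hif1a transcription or acts on its protein, limma called 0 between diets, with 1 at an unadjusted p under 0.05 and 0 called in voom. All 4 had a positive log2 difference, opposite in sign to that of Hif1a, with a median of 0.22, beside 0.18 over all 68 target genes, of which 44 were positive. Tlr2, which senses lipoproteins of bacteria, had means of 102.3 ± 107 (SD, n = 4 pools) in control pools and 206 ± 72.4 (SD, n = 4 pools) in HSD pools, a log2 difference of 1.40 (standard error 0.61, limma adjusted p = 0.628). Without the 3-mouse male control pool it was 2.01 with a limma adjusted p of 0.0238. Nfkb1, a subunit of the NF-κB factor that drives Hif1a transcription, had 0.025 (standard error 0.31, limma adjusted p = 0.942). Its sign reversed under 7 alternatives and held under 8, so its direction is not settled. Tlr4, the endotoxin receptor, had 0.27 and the adaptor Myd88 had 0.17, with limma adjusted p = 0.912 for both.

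Among the 46 other target genes above the floor in all pools, Lyz1, a lysozyme, had the pattern most like Hif1a over the 8 pools (r of log2 values = 0.72). Cldn2, a pore-forming claudin (0.63), and Cdh1, the epithelial cadherin (0.61), followed. The pool that was lowest of the control diet in Hif1a was also the lowest in Lyz1, at 206 against 340.4 to 589.8 in the other control pools. Cdh1 spanned only 3800.3 to 5068, a 1.33-fold range. Trpv1, an ion channel of sensory nerves that the panel lists as trpv1, was least like Hif1a in the deposited values (-0.93), and Tlr2 came next (-0.89). Trpv1 was 47.5 in the 3-mouse male control pool, where Hif1a was 269, and 7.52 to 11.5 in the other control pools, where Hif1a was 797 to 1137. On the HSD it was 16.8 in the 3-mouse male pool, where Hif1a was 729, and 27.9 to 40.5 in the others. It rested on 2 to 75 counts. These correlations are a description over 8 pools that share the scaling, and the genes were picked as the extremes of 46. Their median was -0.14. The order depended on the scaling: with each pool centred on the median of its target genes, Reg3g, an antibacterial lectin, was lowest (-0.78), and Tlr2 and trpv1 had -0.65 and -0.59, while Lyz1, Cdh1 and Cldn2 had 0.87, 0.79 and 0.75.

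**Figure D5:**
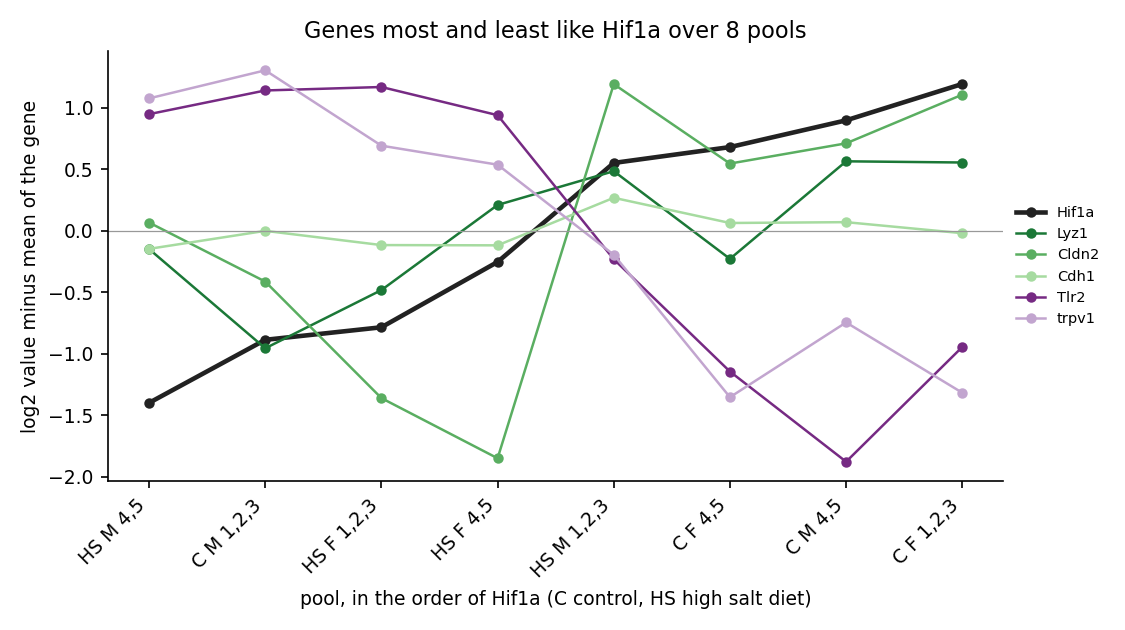
Log2 value minus the mean of the gene over 8 pools, for Hif1a, the 3 genes most like it (Lyz1, Cldn2, Cdh1) and the 2 least like it (Tlr2, trpv1), with pools in ascending order of Hif1a. Tlr2 and trpv1 run opposite to Hif1a (r = -0.89 and -0.93), and the 3-mouse male control pool lies beside the HSD pools of low Hif1a.

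Markers of cell types differed in how they varied with Hif1a. Of the 3 epithelial markers, Cdh1 had r = 0.61, Tff3 0.36 and Muc2 -0.89 over the 8 pools. Their summed values ran from 27488 to 85042 on the control diet, with a median of 29258. On the HSD they ran from 42130.1 to 68703, with a higher median of 54884. Muc2 alone ran from 3373 to 62763 over the 8 pools. Of 4 myeloid markers, CD11C and Cd86 were at the floor in some pools, and the sum of the 4 ran from 52.1 to 200.4 on the control diet and from 52.0 to 113 on the HSD. The 3 markers of glia summed to 43.8 to 146 and 39.7 to 180.0, with S100BETA at the floor in some pools, and the 3 of neurons to 1125 to 2426 and 1667 to 2422. Among the markers of these cells above the floor in all pools, r with Hif1a was -0.68 for CD11b and 0.21 for CCR2 (myeloid). It was -0.37 for GFAP and -0.090 for SOX10 (glia), and -0.24 for CALRET and 0.58 for VIP (neurons). The recovered total had r = -0.49 (rho = -0.64) and the median of the target genes r = -0.22 (rho = -0.048) with Hif1a. The total sums all genes above the floor, among them the widely varying Muc2, so it is not a measure of depth alone. The part of cell composition and of depth in the values of Hif1a was not tested.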

How the data were processed

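Colon RNA of 20 mice in 8 pools was measured on a custom nCounter code set. Per the labels each column is 1 pool, and diet, sex and mouse numbers were taken from the labels. The deposited values are a signal, normalized counts that the authors made in nSolver 4.0, with background and normalization settings not given in the sources used here. All 487 gene values above the floor were whole multiples of a step per pool within 0.006, and 81 were at the floor, the geometric mean of 6 negative controls. Recovered counts were given Poisson and exact binomial 95% intervals. Target genes (68) were fitted with limma 3.58.1 in R 4.3.3 on log2 of the value plus 1, with Benjamini-Hochberg adjustment at 0.05. Sex, mouse numbers and the interaction were tested, with diet as a term, and ratios and correlations by exact permutation over pools in Python 3.11.15 (scipy 1.17.1, pandas 2.3.3). The fit was checked on simulated data. Members and lists were chosen with earlier results of these data known. Named genes, besides the 3 members and Gusb, were the extremes of 2 lists by diet difference, with the other list members given beside them, and the 3 genes most and 2 least like Hif1a. Alternatives were other pseudocounts, scalings, weights, filters and variance models, a replicate block, voom and leaving out pools. Labels do not say whether the pools were processed separately. Myeloperoxidase, microbiota and defensin data were not analysed here. A further gene of the second list is not reported here. Sequences are from RefSeq (GRCm38.p6), where all 4 genes matched by symbol.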

Additional observations from a re-analysis of the deposited data

Results flagged for a closer look

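In 7 of the 30 groups of 4 pools examined, a single pool lay far from the other 3 of its diet. About 1.5 would arise by chance if values were normally distributed and the genes had been picked without regard to them. Several genes were instead picked by diet difference or likeness to Hif1a, so the 7 cannot be read as an excess. The groups are not independent, since the same pools recur, and none of the 7 was Hif1a, Pgk1, Gapdh, Gusb or a ratio between reference genes. In the 3-mouse female control pool, which had the fewest counts, Cldn1 was 57.8 against 14.6 to 17.3, MMP9 was 38.5 against 6.25 to 11.5 and Nfkb1 was 397 against 219 to 243. In the 3-mouse female HSD pool, Cldn1 was 31.0 against 10.8 to 12.8. In the 3-mouse male control pool, Tlr2 was 262 against 32.3 to 61.7 and trpv1 was 47.5 against 7.52 to 11.5. In the 3-mouse male HSD pool, Cdh1 was 5068 against 3800.3 to 3882.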

How the results depend on the processing

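The lower mean of Hif1a on the HSD kept its sign under all 15 alternatives, from -1.39 to -0.63, and the differences of both ratios to Gusb between sexes kept theirs. Among the 15, the replicate block and the minimum mean could not change the estimate of Hif1a and left it at -0.94. With 7 pools the exact permutation test of these ratios cannot go below 0.0571, so it could not pass 0.05. The sex difference of Hif1a (0.42) was -0.27 when centred on the median and -0.042 to 0.91 with each pool left out. The difference between mouse numbers (-0.037) was 0.35 when centred on the median and -0.59 to 0.36 with each pool left out. The number of genes called between sexes was 0, but 1 with a pseudocount of 10, 1 with a minimum mean of 20 and 1 in voom, and 0 to 7 with each pool left out, the 7 without the 2-mouse female control pool. The relation of Hif1a with the ratio of Pgk1 to Gusb (r = 0.30) ran from -0.25 to 0.44 and that with Gapdh to Gusb (-0.034) from -0.34 to 0.17 with each pool left out. Without the 2 pools farthest from the median r was -0.33 for Pgk1, and as deviations from the diet means it was 0.0072 for Gapdh. The cause of these changes was not tested. Between diets, MMP9 ran from -0.011 to 0.87 and Nfkb1 from -0.062 to 0.22 with each pool left out, and Nfkb1 was -0.025 scaled to Gusb, -0.0092 centred on the median and -0.018 weighted by mice. Pools that share a sex and mouse numbers are of different mice, so the numbers do not pair them by animal. Their deviations from the diet means correlated at -0.52, 0.043, 0.40 and 0.012 over 47 genes. The 0.40 was that of the 3-mouse female pools, which had the lowest recovered total of each diet, 13574 and 26893. So few pairs cannot show whether such pools were processed together. With the replicate block the difference of Hif1a between diets stayed at -0.94 and that between sexes at 0.42 (adjusted p = 0.751). The planned count model was not run, since the values are normalized and floored; voom on recovered counts, the minimum mean outside the sex comparison, leaving out the 2 pools farthest from the median, the alternatives for list genes and those for genes like Hif1a were chosen after seeing the data. Counting error of Gusb, 25 to 273 counts, limits the ratios.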

Other observations

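Besides Tlr2 and trpv1, 5 genes that were singled out after their values were seen had r under -0.7 with Hif1a over the 8 pools. These were Muc2, the main mucin of colonic mucus (-0.89), the antibacterial lectin Reg3g (-0.85), the enterocyte fatty acid-binding protein I-FABP (-0.84), the peptidoglycan sensor Nod2 (-0.78) and Tollip, an inhibitor of Toll-like receptor signalling (-0.71). Of the 46 genes, 7 lay under -0.7 and 1, Lyz1, above 0.7. This balance turned with the scaling: with each pool centred on the median of its target genes, 1 gene, Reg3g, lay under -0.7 (-0.78) and 10 lay above 0.7. So centred, Muc2 had -0.61, I-FABP -0.65, Nod2 -0.41 and Tollip 0.10. The correlations are descriptions over 8 pools.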
